A study of Mus musculus with 32 samples.

Results

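Gene expression in the mouse cerebrum 3 days after a photothrombotic stroke was compared with expression in cerebral controls. The comparison used the 4 arrays whose label gives cerebral photothrombosis (cPT) at 3 d and the 4 arrays labelled Kontrolle cPT, 8 of the 32 arrays of the series, and all probes that carry exactly 1 gene symbol. In photothrombosis, light is shone on a small area of tissue whose vessels carry a photosensitive dye, and the vessels close. Both groups came from the cerebrum of male wild-type C57BL/6J mice of 6 to 12 weeks and 20 to 25 g. The tissue was snap frozen, total RNA was taken with TRIzol, and 10 ng of it was converted to cDNA, amplified and labelled with biotin. The other 24 arrays are cerebral arrays of day 1 and day 7 and spinal cord arrays of control, day 1, day 3 and day 7 after spinal cord photothrombosis (scPT), 4 in each group. Whether controls were operated on, how much tissue around the lesion was taken, and whether arrays are from separate animals is not in the labels. P-values therefore cover the spread among these arrays, which may be technical. Sample numbers run in a separate range for each group, so a batch that follows them cannot be told apart from the group.

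After focal ischaemia, neurons in the core die within hours, and the tissue is then cleared and walled off over days. Resident microglia and blood monocytes take up debris and turn to lysosomal and lipid-handling programmes, astrocytes around the lesion become reactive and raise intermediate filaments and secreted acute-phase proteins, and glia, vascular cells and macrophages enter the cell cycle. Oligodendrocyte precursors can divide in this period and later replace lost myelin. In bulk tissue, fewer cells of a type and less RNA per cell cannot be told apart, and the same holds for more cells and more RNA per cell.

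Values are on a log2 scale, and below they are given relative to the mean of the 4 cerebral controls, in the order of replicates 1 to 4, which is only a naming order. The day 3 arrays were deposited with each probe centred apart from the controls. An offset per probe was therefore rebuilt and added, and a gene had to exceed the uncertainty of its offset plus a small allowance. A gene is said to have risen or fallen where its adjusted p was under 0.05 in limma with this bound. Each difference is given with its SE from the fit, with 4 arrays in each group. A wider allowance was chosen after the data had been seen, and its count is given beside a list's count where it moved it by more than 1.5 times, and beside some others. Because the values are centred, they carry no level, so whether a marker is present at all, and which of several genes is the most abundant, cannot be read from them.

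The tissue labels were checked against regional genes on the same scale. All 5 measured forebrain genes (Neurod6, Tbr1, Emx2, Slc17a7 and Nrgn) were higher in each cerebral control than in each spinal control, by log2 values of 2.17 to 6.12. Of 10 measured Hox genes of the trunk, 9 were lower in each cerebral control, and Hoxc9 overlapped. The same 5 and 9 genes separated the day 3 arrays of the cerebrum and the cord. Some arrays stood apart from their group. Day 3 replicate 2 lay more than 1 log2 unit above the median of the other 3 day 3 arrays in 118 genes and below it in 26, against at most 6 and 7 genes for the other day 3 arrays. Among these were liver genes: Alb read 5.99 there and between -0.26 and -0.09 in the other day 3 arrays, and the mean of 23 hepatocyte genes, a list written after Alb was seen, was 1.46 there and between -0.19 and 0.25 in every other array of the series. Fosb (2.72) and Inhba (3.14) were high in the same array and at -0.03 or lower in the other day 3 arrays, while the mean of the immediate early list was -0.16 there and -0.76 to -0.42 in the others. The means of the lists of myelin and precursor genes were low in it. The controls differed among themselves by regional genes. Control replicate 3 lay below the other controls in 62 genes and above in 5, and control replicate 1 above in 38 and below in 15. Pmch, a neuropeptide of the lateral hypothalamus, read 3.24, 3.36, -3.23 and -3.37 in the 4 controls. The list means of thalamic, striatal and immediate early genes by array are in the plot of arrays that stood apart. Some of the results that rest on these arrays are given with and without them.

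**Figure D1:**
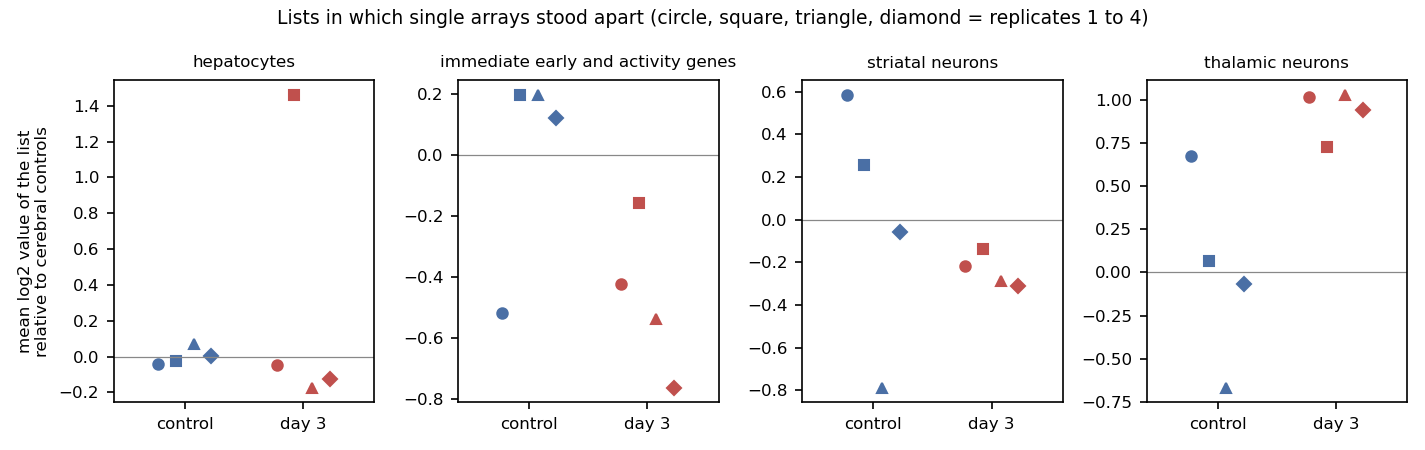
Mean log2 value of hepatocyte, immediate early, striatal and thalamic gene lists in each of the 4 cerebral controls and 4 day 3 arrays, relative to the mean of the controls; each point is 1 array. The hepatocyte list is high in day 3 replicate 2 alone (1.46), immediate early genes are lowest among controls in replicate 1 (-0.52), and the thalamic list runs from -0.67 to 0.67 among the controls.

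Of 19505 genes, 3047 (15.6%) differed between day 3 and control: 1464 (7.51%) rose and 1583 (8.12%) fell. With the wider allowance 963 (4.94%) differed, 557 (2.86%) that rose and 406 (2.08%) that fell. Large changes were mostly rises, since 279 of the called genes rose by more than 1 log2 unit and 83 fell by more than 1. At an unadjusted p under 0.05, 5471 genes differed, and the median difference over all genes was -0.03. The 4 day 3 arrays lay above all 4 controls in 2429 genes (12.5%) and below all of them in 2537 (13%). The 25 largest rises among called genes without overlap between the groups ran from 2.38 to 4.70, and the 25 largest falls from 1.22 to 2.75 in size. Of these 50 genes, 24 rises and 24 falls also passed with the wider allowance, and all 25 and 25 passed when day 3 replicate 2 was left out. For the gene lists below, a direction that is not mentioned had no member that passed in limma.

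The rises were led by secreted proteins and filaments of reactive astrocytes and by genes of phagocytes and dividing cells. Lcn2, an iron-carrier-binding acute-phase protein, read 0.26, 0.31, -0.50 and -0.06 in the 4 controls and 4.35, 5.89, 3.61 and 4.96 at day 3. Each day 3 array was above every control by more than 3 log2 units, with replicate 2 the highest. The difference was 4.70 ± 0.73 (26.1-fold, adjusted p = 0.000118). Serpina3n, a serine protease inhibitor, had controls between -0.07 and 0.14 and day 3 values of 3.86, 4.68, 3.35 and 3.75. It rose by 3.91 ± 0.21 (15.1-fold, adjusted p = 3.97e-14), which is the smallest adjusted p among the 50 genes. Gfap, the intermediate filament that defines astrocytes, read -0.63, 0.05, 0.45 and 0.13 in the controls and 3.07, 3.85, 3.15 and 3.39 at day 3. The groups were far apart, and the difference was 3.37 ± 0.26 (10.3-fold, adjusted p = 1.4e-10). A2m, a broad protease inhibitor of plasma and glia, read 2.88, 3.50, 2.01 and 2.75 at day 3 against controls between -0.40 and 0.38, a rise of 2.78 ± 0.38.

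**Figure D2:**
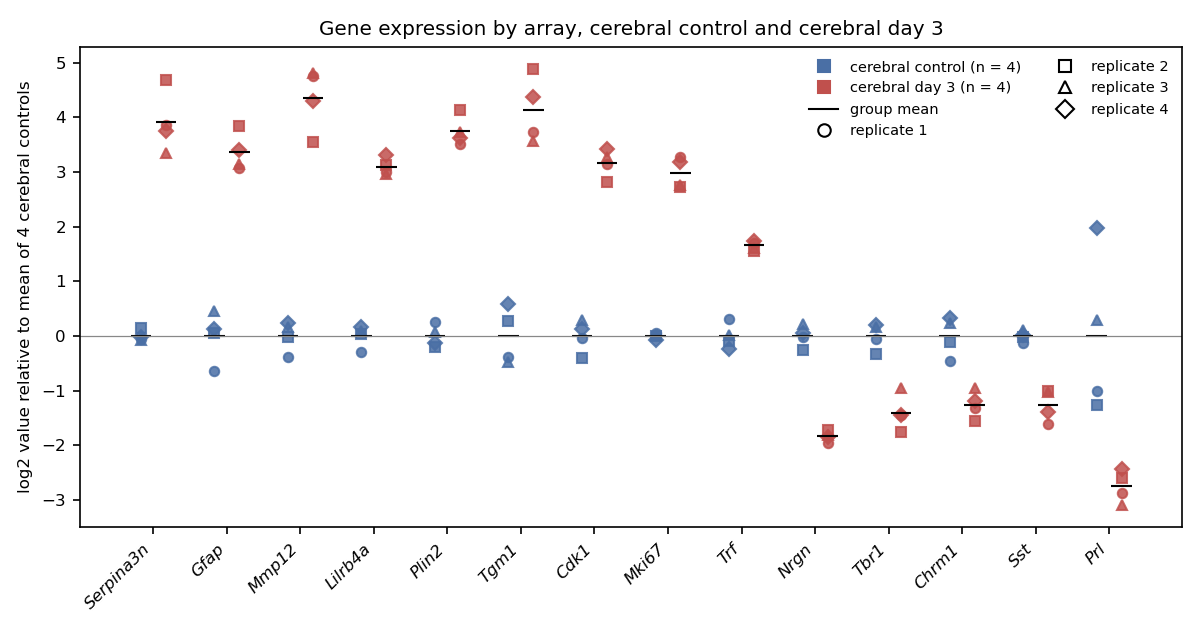
Log2 values of 14 genes in each of the 4 cerebral controls (blue) and 4 day 3 arrays (red), relative to the mean of the controls; marker shape gives the replicate and the bar the group mean. The controls spread most in Prl, from -1.26 to 1.98. The groups do not overlap in any of the 14 genes. The largest rises and falls were picked from genes without overlap, so its absence in those plotted here follows from that choice.

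Of 19 measured genes of reactive astrocytes, 10 rose (9 with the wider allowance), and the list median was 0.95. Besides Lcn2, Serpina3n and Gfap these were Tm4sf1 (1.78), Hspb1 (1.66), Cp, the copper-binding ferroxidase ceruloplasmin (1.60), Cd44, a hyaluronan receptor (1.57), Vim, the filament vimentin (1.27), S1pr3 (1.12) and Nes (0.76). Cxcl10 (-0.04), Steap4 (0.00), Ptx3 (-0.10) and Aspg (0.25) did not pass. The list mean was 1.16, 1.90, 1.02 and 1.28 in the day 3 arrays and between -0.02 and 0.02 in the controls, so replicate 2 was the highest. Without that array 8 of the 19 passed. Hspb1, a small heat shock protein, shows the difference: it read 0.88, 3.76, 0.98 and 1.02 at day 3, and its rise was 0.96 without replicate 2.

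Part of the genes of resting astrocytes rose too. Of 15, 8 rose (4 with the wider allowance), with a median of 0.54. Slc6a11, the GABA transporter GAT-3, read 0.39, 0.46, -0.54 and -0.31 in the controls and 1.21, 0.72, 1.25 and 1.23 at day 3. Kcnj10, the inwardly rectifying potassium channel of astrocyte end feet, rose by 0.97 ± 0.21, Aldh1l1, a folate enzyme, by 0.92, and Fgfr3 by 0.91. The glutamate transporter Slc1a2 stood at 0.04 ± 0.11 and did not pass. The water channel Aqp4 read 0.69 to 1.42 at day 3 against -0.07 to 0.09 in the controls, yet its offset was uncertain by more than the difference, and it did not pass. The count depended on which controls were used: 2 of the 15 passed with controls 1 and 2 alone, 7 with controls 3 and 4 alone, and 5 without control replicate 4.

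Most genes of activated microglia and macrophages rose, while several markers of resting microglia did not pass. Of 16 measured activation genes, 10 rose (7 with the wider allowance), with a median of 1.13. Ctsz, a lysosomal cathepsin, had controls from -0.15 to 0.14 and read 2.10, 2.13, 2.08 and 2.30 at day 3, a rise of 2.15 ± 0.24 (4.44-fold, adjusted p = 1.52e-07). Tyrobp, the adaptor of activating receptors such as Trem2, read 1.72, 1.70, 1.91 and 1.79 at day 3 against -0.09 to 0.07. The day 3 arrays were tight here, and the rise was 1.78 ± 0.22 (3.44-fold). Cd63, a tetraspanin of late endosomes, rose by 1.33 ± 0.11, Csf1, the macrophage growth factor, by 1.43 ± 0.14, Lgals3, galectin-3, by 1.50 ± 0.25, and Gpnmb, a glycoprotein of phagocytes, by 1.81. Trem2 itself rose by 1.12 ± 0.33 (adjusted p = 0.0187), and its adjusted p was 0.0779 with the wider allowance. Apoe (0.56 ± 0.22), Itgax (0.09) and Lpl (-0.17) did not pass.

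Of 13 measured genes of homeostatic microglia, 6 rose, with a median of 0.85. The 6 were Csf1r, the receptor for Csf1 and Il34 (1.77 ± 0.24), Fcrls (1.26), Gpr34 (1.23), Sparc, a matrix glycoprotein that vessels and astrocytes also make (1.09), Selplg, the ligand of P-selectin (1.02), and Olfml3 (0.88). Csf1r read 1.76, 1.57, 1.67 and 2.07 at day 3 against -0.23 to 0.17 in the controls. P2ry12, the purinergic receptor that marks resting microglia, read 0.30, -0.03, 0.32 and 0.39 at day 3 and overlapped the controls (0.25 ± 0.25), and Tmem119 stood at 0.30 ± 0.15. Cx3cr1, the fractalkine receptor, was above all controls in each day 3 array (0.74 to 1.02), but at 0.85 ± 0.32 it did not pass. Aif1, which encodes the microglial and macrophage protein Iba1, read 2.28, 2.33, 2.76 and 2.89 at day 3 and rose by 2.56 ± 0.41 (adjusted p = 4.56e-05).

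Several receptors for antibody and other opsonins rose. Of 14 Fc and inhibitory receptors, 9 rose (8 with the wider allowance), with a median of 1.11. Lilrb4a, an inhibitory receptor of myeloid cells, read 3.00, 3.12, 2.96 and 3.31 at day 3 against -0.29 to 0.17 in the controls, a rise of 3.10 ± 0.28 (8.56-fold, adjusted p = 3.34e-09). Fcgr3, a low-affinity IgG receptor, read 1.96, 2.67, 1.97 and 2.13 and rose by 2.18 ± 0.16, Fcgr1, the high-affinity one, by 1.96, Fcer1g, their common signalling chain, by 1.73, and Fcgr2b, the inhibitory IgG receptor, by 1.68. The signal-regulatory receptor Sirpa (-0.37) and Cd300a (0.14) did not pass. Of 12 complement genes, 6 rose: C1qa (2.29 ± 0.23), C1qb (2.11) and C1qc (1.82), which form the recognition molecule of the classical pathway, C4b (1.56 ± 0.22), and the receptors C3ar1 (2.06) and C5ar1 (0.57). C1qa read 2.07, 2.39, 2.25 and 2.44 at day 3, all far above the controls, whose highest value was 0.12. The regulator Serping1 (-0.03) and the proteases C1ra (0.38) and C1s1 (0.00) did not pass.

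**Figure D3:**
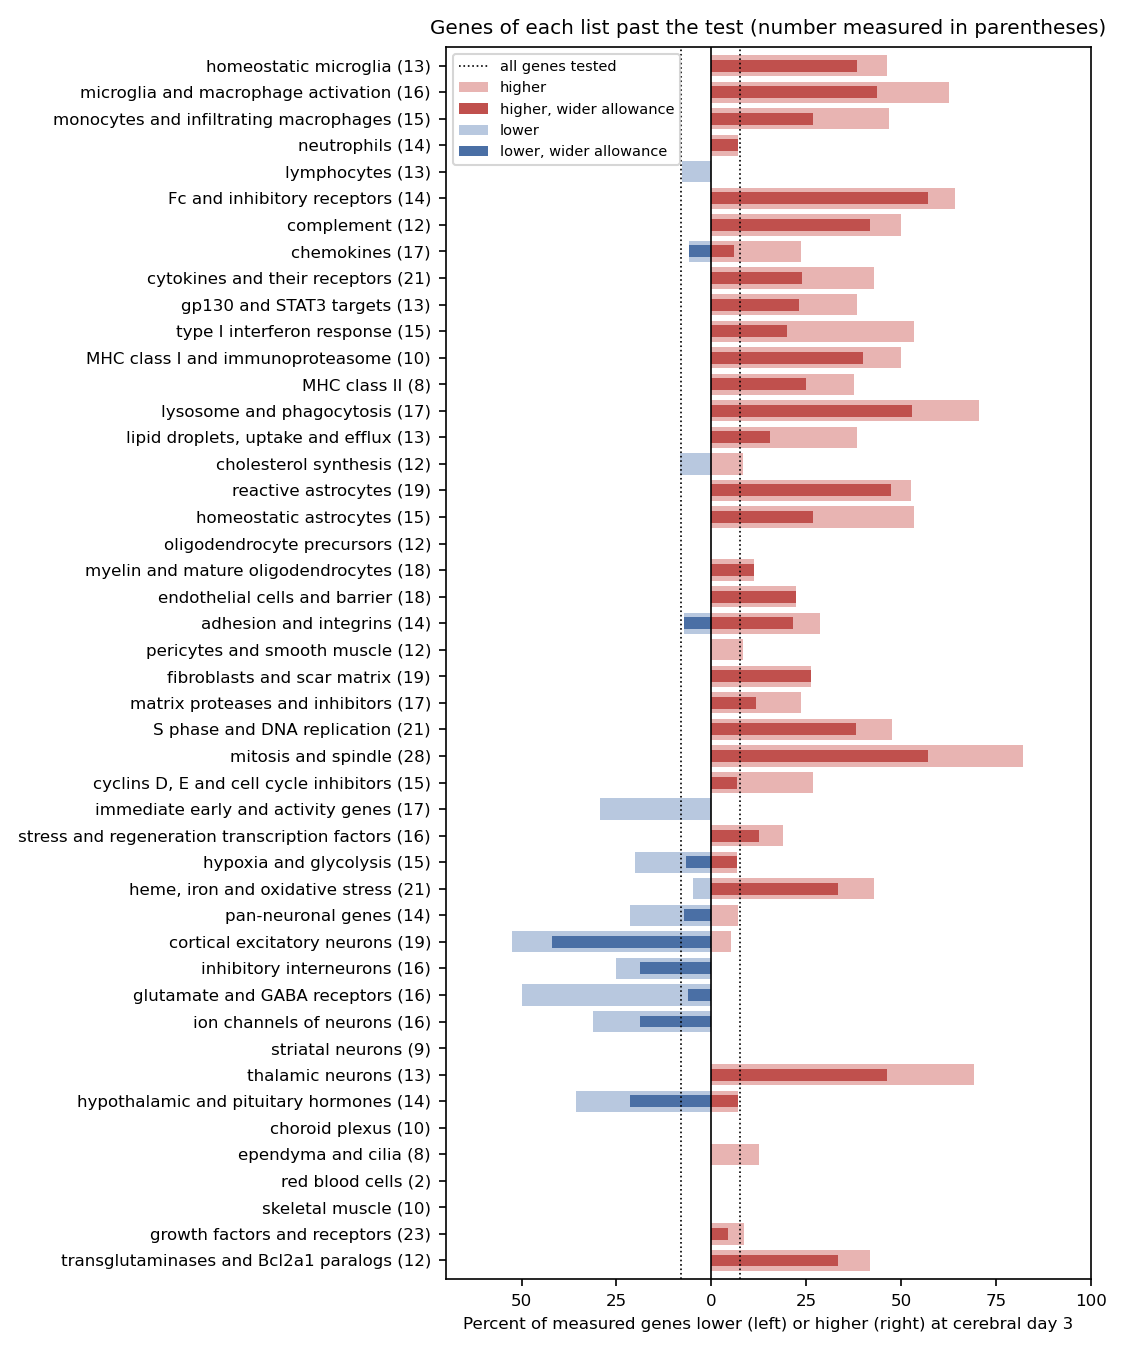
Percent of the measured genes of each of 46 gene lists that rose (right) or fell (left) at cerebral day 3; pale bars use the allowance described in the text, dark bars the wider one, and dotted lines mark the share over all genes (7.51% risen, 8.12% fallen). Mitosis, lysosome and thalamic lists have the longest bars of rises, and the longest bars of falls are those of cortical excitatory neurons and of glutamate and GABA receptors.

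Genes of incoming blood cells gave a mixed picture. Of 15 genes of monocytes and infiltrating macrophages, 7 rose (4 with the wider allowance), with a median of 0.46. Arg1, the arginase of tissue-repair macrophages, read -0.23, 0.13, -0.20 and 0.30 in the controls and 2.62, 2.38, 2.62 and 2.20 at day 3. All 4 arrays were more than 1.5 log2 units above the highest control, and the rise was 2.46 ± 0.44 (5.49-fold, adjusted p = 0.000194). Ms4a7 (2.16), Lyz2 (2.24), Fn1 (1.96 ± 0.37), Thbs1 (1.86 ± 0.36), Mrc1 (1.28) and Plac8 (0.79) were the others, and of these Fn1 and Thbs1 encode secreted matrix glycoproteins that other cells make as well. The chemokine receptor Ccr2 (0.46 ± 0.21), Ly6c2 (0.19) and Chil3 (-0.16), members of the same list, did not pass. Ms4a6d, a relative of Ms4a7, read 2.57, 3.02, 2.13 and 2.58 and rose by 2.57 ± 0.31 (adjusted p = 9.57e-07).

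Neutrophil and lymphocyte genes stayed near the controls, while over all genes 7.51% rose and 8.12% fell. Of 14 neutrophil genes, 1 rose: Csf3r, the receptor for granulocyte colony-stimulating factor, which microglia express too, at 1.07 ± 0.19. S100a8 read 0.50, 0.82, 0.22 and 0.33 at day 3 and stood at 0.47 ± 0.47, and the list median was -0.05. Of 13 lymphocyte genes, 1 passed in limma, Gzmb, which fell by 0.36, and at an unadjusted p under 0.05 it was still the only 1. It did not pass with the wider allowance, nor in 6 of the 8 fits that left out 1 array. The list median was -0.07, and the T cell receptor chain Cd3e stood at -0.09 ± 0.12.

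Part of the signals that recruit leukocytes changed, where 7.51% of all genes rose and 8.12% fell. Of 17 chemokines and their receptors, 4 rose (Cxcl16 1.19, Ccl6 1.14, Ccl3 1.12, Ccl12 0.76) and 1 fell (1 and 1 with the wider allowance, and 2 rose without day 3 replicate 2). The one that fell was Cx3cl1, fractalkine, a chemokine that neurons make. It read -1.05, -1.01, -0.61 and -0.98 at day 3, below all controls, and fell by 0.91 ± 0.14 on the log2 scale (adjusted p = 3.3e-05). Ccl2, the main chemokine for monocytes, read 0.66 to 0.88 at day 3 and above all controls, but its highest control was at 0.59, and at 0.73 ± 0.27 it did not pass. Among adhesion genes, Selp, the P-selectin on activated endothelium and platelets, read 2.30, 2.15, 2.05 and 3.23 at day 3 and rose by 2.43 ± 0.69 (adjusted p = 0.0138). Itgam, the integrin chain of CR3, rose by 1.79 and Itga4, the integrin chain of VLA-4, fell by 0.71 ± 0.15.

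Of 21 cytokines and receptors, 9 rose (5 with the wider allowance, and 8 without day 3 replicate 2). Receptors led them: Tnfrsf1a, the TNF receptor that most cells carry, at 1.70 ± 0.22, Il4ra at 1.70, Tnfrsf12a, the TWEAK receptor, at 1.43, and Il6st, the gp130 signal chain of the IL-6 family, at 1.20. The rises among ligands were Tgfb1 (1.15 ± 0.26), Il33 (0.90) and Il1a (0.64). Il1b (0.65 ± 0.50), Il6 (0.35 ± 0.38) and Tnf (0.10 ± 0.13) did not pass. Stat3, the transcription factor below gp130, read 0.96, 1.50, 0.90 and 0.97 at day 3 and rose by 1.08 ± 0.20 (adjusted p = 0.000246), whereas its feedback inhibitor Socs3 stood at 0.09 ± 0.11. Of 13 genes on the list of gp130 and STAT3 targets, 5 rose: Lcn2, Il4ra, Stat3, Bcl3 (0.50) and Cebpd (0.44). The wider allowance left 3.

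Of 15 genes of the type I interferon response, 8 rose, with a median of 0.56. Bst2, tetherin, read 1.66, 2.02, 2.61 and 2.98 at day 3 and rose by 2.32 ± 0.31, and Ifitm3, which blocks virus entry, by 2.09 ± 0.29. Ifit1 (1.23), Irf7 (1.05), Ifit3 (1.04) and Usp18 (1.00) followed. Replicates 3 and 4 were higher than 1 and 2 in the list mean (0.57, 0.60, 0.99 and 1.17). The count was not stable: 3 of the 15 passed with the wider allowance, and 3 to 8 when any single array was left out. The leave-outs that moved it most were control replicates 1 and 2 and day 3 replicates 3 and 4. In the list of MHC class I and immunoproteasome, 5 of 10 rose, with Psmb8 at 1.22, H2-K1 at 1.18 and B2m at 0.95, and in MHC class II 3 of 8 rose. Those 3 were the cathepsin Ctss (1.53 ± 0.20), the peptide-loading chain H2-DMb1 (1.49) and the costimulator Cd86 (0.92), while the class II chains H2-Aa (0.48), H2-Ab1 (0.57) and H2-Eb1 (0.67) did not pass.

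Genes of lysosomal digestion and of lipid storage rose in part. Of 17 lysosomal and phagocytic genes, 12 rose (9 with the wider allowance), with a median of 0.93. Mpeg1, the pore-forming perforin-2 of phagocytes, read 3.20, 3.06, 3.30 and 3.47 at day 3 against -0.13 to 0.19 in the controls, a rise of 3.26 ± 0.28 (adjusted p = 1.84e-09). Grn, progranulin, rose by 1.67, Ctsh by 1.64, Ctsc by 1.26 and Ctsl by 1.16. Plin2, the coat protein of lipid droplets, read 0.26, -0.20, 0.07 and -0.13 in the controls and 3.51, 4.14, 3.72 and 3.62 at day 3. That is a rise of 3.75 ± 0.27 (13.4-fold, adjusted p = 5.99e-11), with all arrays far from the controls. The cholesterol exporter Abca1 rose by 1.32 ± 0.23, the scavenger receptor Msr1 by 0.85, the fatty acid carrier Fabp5 by 0.66, and the sterol-sensing receptor Nr1h3 by 0.63. These were 5 of 13 genes of lipid droplets, uptake and efflux (2 with the wider allowance, 3 without control replicate 1). Cholesterol synthesis had 1 of 12 higher, Lss (0.59), and 1 lower, Dhcr7 (-0.36), near the shares over all genes (7.51% and 8.12%). Neither gene passed with the wider allowance. Dhcr7 was also lost in 6 of the 8 fits that left out 1 array, and Lss without control replicate 4.

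Mmp12, the macrophage elastase, read -0.38, -0.02, 0.16 and 0.24 in the controls and 4.75, 3.54, 4.81 and 4.30 at day 3. It rose by 4.35 ± 0.39 (20.4-fold, adjusted p = 2.76e-09) and was the second largest rise. Of 17 matrix proteases and inhibitors, 3 others rose: Adamts1 (1.02), Timp2 (0.86 ± 0.15) and Mmp14 (0.76). Mmp9 (-0.05), which neutrophils release, and Timp1 (0.95) did not pass. Without control replicate 4 or day 3 replicate 4 the list count was as low as 2, and it was 2 with the wider allowance. Tgm1, a transglutaminase that cross-links proteins, read -0.38, 0.27, -0.47 and 0.59 in the controls and 3.73, 4.89, 3.56 and 4.36 at day 3, a rise of 4.14 ± 0.44 (17.6-fold, adjusted p = 1.02e-07). The related Tgm2 stood at 0.24 ± 0.21. Probes for Bcl2a1b (3.49 ± 0.22), Bcl2a1d (2.93 ± 0.24) and Bcl2a1a (2.80 ± 0.25), near-identical copies of a survival gene of myeloid cells, all rose, and signal of these copies may be split or shared between their probes.

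Genes of iron handling and oxidants rose in part. Of 21, 9 rose and 1 fell, and with the wider allowance 7 rose and 0 fell. Hmox1, heme oxygenase, read 1.87, 2.70, 1.78 and 1.77 at day 3 against -0.37 to 0.29, a rise of 2.03 ± 0.37 (4.08-fold, adjusted p = 0.000232). Subunits of the phagocyte oxidase, Cyba (1.89) and Cybb (1.73), the iron transporter Slc11a1 (1.49), the ferritin light chain Ftl1 (1.40 ± 0.19), thioredoxin reductase Txnrd1 (1.23), the ferritin heavy chain Fth1 (0.53) and Gclm (0.53) rose, and the list also holds Trf, described with the myelin genes. Tfrc, the transferrin receptor that brings iron in, read -0.46, -1.03, -0.42 and -0.26 at day 3 and fell by 0.54 ± 0.14 on the log2 scale (adjusted p = 0.00917, and 0.142 with the wider allowance). The metallothioneins Mt1 (-0.13) and Mt2 (-0.27) did not pass. Among 15 hypoxia genes, Hk2, hexokinase 2, rose by 1.86 ± 0.28, and Pdk1 (-0.65 ± 0.13), Bnip3 (-0.44) and P4ha1 (-0.43) fell (1 of the 3 with the wider allowance). The list median was 0.08, and over all genes 7.51% rose and 8.12% fell.

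Part of the vessel and matrix genes rose, where 7.51% of all genes did. Of 18 endothelial genes, 4 rose, with and without the wider allowance: the tight junction protein Cldn5 (1.44 ± 0.18), the cadherin Cdh5 (1.02), Pecam1 (0.94) and Vwf (0.85). Cldn5 read 1.22, 1.52, 1.55 and 1.46 at day 3 and between -0.15 and 0.18 in the controls. The growth factor receptors Flt1 (0.27) and Kdr (0.39) and the transporter Slco1c1 (-0.11) did not pass. Of 12 pericyte and smooth muscle genes, 1 rose, Tagln (1.37), and it did not pass without day 3 replicate 2 or with the wider allowance. Of 19 genes of fibroblasts and scar matrix, 5 rose: Tnc, tenascin-C (2.66 ± 0.29), Fn1, Thbs1, Nid1 (1.15) and Sparc. Tnc read 2.54, 3.01, 2.54 and 2.55 at day 3, with replicate 2 apart from the other 3. Collagens did not pass, with Col1a1 at 0.14 ± 0.29 and Col4a1 at -0.03 ± 0.09.

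The list of mitosis and the spindle had the largest share of risen genes among the 46 lists. Of its 28 genes, 23 rose (16 with the wider allowance, and 22 to 23 when any single array was left out), with a median of 0.86. The list mean was 1.12, 1.05, 0.97 and 1.17 in the 4 day 3 arrays and between -0.02 and 0.03 in the controls. Cdk1, the kinase that starts mitosis, read -0.03, -0.41, 0.30 and 0.13 in the controls and 3.14, 2.82, 3.27 and 3.42 at day 3, a rise of 3.16 ± 0.35 (adjusted p = 2.22e-07). Mki67, the proliferation antigen Ki-67, had controls between -0.07 and 0.06 and read 3.27, 2.73, 2.77 and 3.19, a rise of 2.99 ± 0.36 (7.94-fold, adjusted p = 7.19e-07). Both genes were more than 2 log2 units above every control in every array. Pbk, a mitotic kinase, rose by 3.24 ± 0.38, Plk1, polo-like kinase, by 1.89 ± 0.27, Top2a, which untangles replicated DNA, by 1.40 ± 0.22, Birc5, survivin, by 1.16, and Ccnb2, a B-type cyclin, by 1.00 ± 0.21. The 5 that did not pass were Anln (0.72), Kif20a (0.51), Ect2 (0.37), Cdca8 (0.34) and Ttk (0.10).

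Of 21 genes of S phase and DNA replication, 10 rose (8 with the wider allowance). Rrm1, which with Rrm2 makes deoxynucleotides, rose by 1.25 ± 0.21, the helicase subunits Mcm3 by 0.89 and Mcm2 by 0.85 ± 0.14, and the sliding clamp Pcna by 0.64. Mcm2 read 0.86, 0.72, 0.88 and 0.96 at day 3 against -0.14 to 0.13 in the controls. Tk1 (-0.16), E2f1 (-0.03) and Cdc45 (0.03) did not pass. Of 15 D and E cyclins and cell cycle inhibitors, 4 rose: Cdkn1a, the inhibitor p21 (1.31), Ccnd3 (0.89), Cdkn2c (0.61) and Cdk4 (0.49), with 1 kept under the wider allowance and 2 without control replicate 1. The Cdkn1a value rests on replicate 2, which read 3.18, and it was 0.69 without it.

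Because these genes moved together, their promoters are shown as RefSeq gives them on GRCm38.p6, matched by symbol. Mitotic genes are known to carry CCAAT boxes, which NF-Y binds, and an element near the start site with the letters TTTGAA, which the DREAM and B-MYB complexes bind. Both were searched on both strands in the 250 bases before each start. The letters CCAAT and TTTGAA do not overlap each other's matches in the sequences shown. Of the 19 mitotic genes that rose and have a promoter in the table, 16 (84.2%) held CCAAT and 7 (36.8%) held TTTGAA, against 37.5% and 18.3% of 27025 genes. Of the 4 mitotic genes that did not pass and have a promoter, 3 (75%) held CCAAT, so the letters did not separate them. The stretches of 4 mitotic genes with both sets of letters follow, each read 5′ to 3′ on the strand of its gene, with the matches on either strand in capitals.
Cdk1 (chr10:69352913-69353140, strand -): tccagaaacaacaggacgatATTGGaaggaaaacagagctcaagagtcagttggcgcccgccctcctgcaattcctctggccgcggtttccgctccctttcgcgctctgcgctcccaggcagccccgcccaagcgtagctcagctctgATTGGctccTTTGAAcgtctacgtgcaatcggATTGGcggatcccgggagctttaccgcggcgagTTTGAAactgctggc
Mki67 (chr7:135716452-135716587, strand -): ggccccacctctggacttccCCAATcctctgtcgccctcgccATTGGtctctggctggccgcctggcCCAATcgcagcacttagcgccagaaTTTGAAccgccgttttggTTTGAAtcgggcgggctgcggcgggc
Top2a (chr11:99024200-99024436, strand -): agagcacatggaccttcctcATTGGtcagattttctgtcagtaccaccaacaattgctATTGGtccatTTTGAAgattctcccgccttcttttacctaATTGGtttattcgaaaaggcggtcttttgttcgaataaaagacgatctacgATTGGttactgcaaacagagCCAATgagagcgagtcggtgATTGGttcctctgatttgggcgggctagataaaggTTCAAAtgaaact
Ccnb2 (chr9:70421555-70421741, strand -): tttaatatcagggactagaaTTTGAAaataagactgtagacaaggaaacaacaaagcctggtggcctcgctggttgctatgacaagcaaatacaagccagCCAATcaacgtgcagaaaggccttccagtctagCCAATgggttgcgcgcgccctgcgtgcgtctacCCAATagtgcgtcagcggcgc
Cdk1 and Mki67 each have 2 TTTGAA and 3 CCAAT matches in these stretches, Top2a 2 and 6, and Ccnb2 1 and 3. In Ccnb2 the TTTGAA match lies further from the start than all 3 CCAAT matches, so it is not the element near the start site. In the S phase list 7 of 7 genes that rose and 4 of 10 that did not pass held CCAAT (100% and 40%). A match is only these letters in this window and does not show binding.

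The myelin genes were above the controls in most arrays but rarely passed. Of 18 genes of myelin and mature oligodendrocytes, 2 rose, with a median of 0.71. Trf, transferrin, which oligodendrocytes make in the brain, read 0.31, -0.09, 0.02 and -0.24 in the controls and 1.71, 1.56, 1.62 and 1.74 at day 3, a rise of 1.65 ± 0.19 (3.15-fold, adjusted p = 3.05e-07). Bcas1, a marker of oligodendrocytes that are starting to myelinate, read 0.95, 0.88, 0.96 and 1.24 and rose by 1.01 ± 0.17 (adjusted p = 0.000146). Mbp, myelin basic protein, read 0.74, 0.49, 0.78 and 0.83 at day 3 against 0.31, 0.05, -0.15 and -0.21. All 4 arrays were above the controls, but the uncertainty of its offset was nearly as large as the difference of 0.71 ± 0.11, and it did not pass. Mog read 1.05, 0.01, 0.90 and 0.99, and Opalin 0.12, -1.19, 0.46 and 0.39, so replicate 2 was the low array in both. The list mean was 0.85, 0.34, 0.86 and 0.92 at day 3, while the controls ran from -0.31 to 0.33, in the same order as for the thalamic list. Against controls 3 and 4 alone 6 of the 18 passed, and against controls 1 and 2 alone 2 did. Of 12 genes of oligodendrocyte precursors, none passed in limma (at an unadjusted p under 0.05, 2 were higher and 1 lower), with a median of 0.39: Olig2 stood at 0.42 ± 0.18 and Cspg4, which encodes NG2, at 0.23 ± 0.19.

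Genes of cortical neurons were among the falls. Nrgn, neurogranin, a calmodulin-binding protein of excitatory dendrites, read -0.02, -0.26, 0.22 and 0.06 in the controls and -1.96, -1.71, -1.82 and -1.86 at day 3. All 4 arrays were more than 1 log2 unit below the lowest control, and the gene fell by 1.84 ± 0.15 on the log2 scale (adjusted p = 9.23e-10). Tbr1, a transcription factor of deep-layer cortical neurons, read -1.45, -1.76, -0.96 and -1.45 and fell by 1.40 ± 0.15 (adjusted p = 1.03e-07). Chrm1, the muscarinic receptor M1 of the forebrain, read -1.32, -1.56, -0.95 and -1.20 and fell by 1.26 ± 0.17. Cnih2, which escorts AMPA receptors, read -1.38, -1.21, -1.08 and -1.26 and fell by 1.23 ± 0.13 (adjusted p = 5.52e-08), and the calcium sensor Cabp1 fell by 1.32 ± 0.15. Dtx3, an E3 ligase of the Deltex family, had controls between -0.11 and 0.07 and read -1.74, -1.71, -1.28 and -1.53, a difference of -1.56 ± 0.13.

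Of 19 genes of cortical excitatory neurons, 10 fell and 1 rose (8 fell with the wider allowance, and 9 to 11 when any single array was left out), with a median of -0.61. The 10 included Neurod6 (-1.53), Lamp5 (-1.17 ± 0.17), the vesicular glutamate transporter Slc17a7 (-0.97), the dendritic proteins Itpka (-0.97) and Ddn (-0.96), and Camk2a (-0.74). The list mean was -0.67, -0.71, -0.53 and -0.67 at day 3 and -0.17 to 0.19 in the controls. The gene that rose was Foxp2 (0.66), which deep cortical layers, striatum and thalamus express. It did not pass with the wider allowance, or in 7 of the 8 fits that left out 1 array, all but the one without control replicate 1. Layer genes Cux2 (-0.07), Rorb (0.16) and Fezf2 (-0.14) did not pass. Of 16 interneuron genes, 4 fell: Sst, somatostatin, Npy (-1.13 ± 0.24), Cort (-0.58) and Cck (-0.55). The count was 3 with the wider allowance and 3 without day 3 replicate 2. Sst read -1.61, -1.01, -1.02 and -1.40 at day 3 against -0.12 to 0.11, a fall of 1.26 ± 0.22 (adjusted p = 0.000608). Npy read -1.62, -0.24, -1.23 and -1.42, so replicate 2 lay within the controls. Gad2 (0.25) and Slc32a1 (0.01), which mark GABA neurons at large, did not pass, and neither did Pvalb (-0.04), which marks a subclass of them.

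Part of the general neuronal genes passed, where 7.51% of all genes rose and 8.12% fell. Of 14, 3 fell (Thy1 -0.66 ± 0.13, Rbfox3 -0.59, Syp -0.41) and 1 rose, Tubb3 (0.53), a tubulin of growing axons, with a median of -0.13. Snap25 read -0.02, -0.13, -0.20 and 0.05 at day 3 and stood at -0.08 ± 0.15. With the wider allowance 1 fell and Tubb3 did not pass, and without control replicate 3 there was 1 fall. Tubb3 also did not pass in 6 of the 8 fits that left out 1 array, and passed without control replicate 3 or day 3 replicate 2. Of 16 receptors for glutamate and GABA, 8 fell, from Grin2a (-0.91 ± 0.17) and Grin2b (-0.74), the NMDA receptor subunits, to Gabra4 (-0.41). This count was not stable: 1 fell with the wider allowance, 1 without day 3 replicate 2, and at most 6 when any other single array was left out. Of 16 ion channels 5 fell, led by Kcnv1 (-1.17 ± 0.26) and the sodium channels Scn1a (-0.93) and Scn2a (-0.69); 3 fell with the wider allowance, and 3 without day 3 replicate 2 or replicate 4. Kcnv1 read -0.89, -2.32, -0.47 and -0.99 at day 3 and overlapped the controls, which ran from -0.70 to 0.59.

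Some immediate early genes, which neurons switch on with activity, fell, while the list mean overlapped the controls through control replicate 1 alone. Of 17, 5 fell and 12 did not pass, with a median of -0.62: Nr4a1 (-1.40 ± 0.25), Nr4a3 (-0.86), Npas4 (-0.68 ± 0.16), Egr3 (-0.65) and Homer1 (-0.62 ± 0.16). With the wider allowance none passed in limma, and 5 had an unadjusted p under 0.05. Control replicate 1 was low in these genes, with a list mean of -0.52 against 0.12 to 0.20 in the other 3 controls, and Nr4a1 read -1.25 there, within the range of the day 3 arrays (-1.74 to -1.07). Egr1 read -1.25, -1.95, -1.53 and -1.67 at day 3 and was below all controls, but its offset was uncertain by nearly 1 log2 unit, and it did not pass. Without control replicate 1, 7 of the 17 fell, the most over all fits that left out 1 array. The fewest, 4, fell without control replicate 2. Among stress-linked transcription factors 3 of 16 rose: Atf3 (0.94 ± 0.23), Jun (0.76) and Hif1a (0.73). The count was 2 with the wider allowance, 2 without day 3 replicate 2, and 1 with controls 1 and 2 alone. The list mean ran from 0.11 to 0.63 over the day 3 arrays.

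Genes that mark other brain regions also moved, and the controls spread widely in them. Of 13 thalamic genes, 9 rose (6 with the wider allowance), with a median of 0.87. Slitrk6 read 1.03, 0.07, -0.95 and -0.15 in the controls and 1.80, 1.48, 1.82 and 1.99 at day 3, a rise of 1.77 ± 0.24. Slc17a6, the vesicular glutamate transporter of subcortical neurons, read 1.53, 1.10, 1.30 and 1.24 and rose by 1.29 ± 0.21. Tcf7l2 had controls from -1.69 to 1.43, so that day 3, at 1.40 to 1.74, overlapped them. Against controls 1 and 2 alone 5 of the 13 rose, and against controls 3 and 4 alone 10 did. Of 9 striatal genes none passed in limma (2 were lower at an unadjusted p under 0.05), with a median of -0.28, while the controls ran from -0.79 to 0.59 in their mean. Of 14 hormones of hypothalamus and pituitary, 5 fell and 1 rose (3 fell with the wider allowance and 3 without control replicate 2). Prl, prolactin, read -1.01, -1.26, 0.29 and 1.98 in the controls and -2.88, -2.60, -3.09 and -2.43 at day 3, and Pomc -0.96, -0.35, 0.10 and 1.20 and then -1.59, -1.42, -1.45 and -1.45. Day 3 was lower than every control in both, with control 4 the highest. Cartpt rose by 1.39 ± 0.20, and Hcrt (-1.10), Gh (-0.97 ± 0.18) and Avp (-0.37) fell. The part of this spread among the controls in the differences of hormone and thalamic genes was not tested beyond these splits.

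Other genes among the 25 largest falls have no known place in these lists. Cd34, a sialomucin of endothelium and progenitors, read -1.21, -1.64, -1.10 and -1.26 and fell by 1.30 ± 0.21. Krt20, a keratin, fell by 1.43 ± 0.13, and the olfactory receptor probes Olfr1170, Olfr731, Olfr1110 and Olfr141 fell by 1.84, 1.74, 1.43 and 1.26. Olfactory receptors are a large family of similar sequences, and their probes are named as the annotation gives them. Glra1, the glycine receptor subunit of brain stem and cord, was the one named rise lost with the wider allowance: it read 0.04, 1.13, -0.77 and -0.40 in the controls and up to 2.72 at day 3, above all controls in each array, with an uncertain offset (adjusted p = 0.0351, and 0.214). Among the falls it was Ciart, a clock gene (-1.24 ± 0.25, adjusted p = 0.0501 with the wider allowance). Of the 2634 probes with no gene symbol, 122 rose and 348 fell, 17.8% in all.

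The spinal cord at day 3, with its own controls, was used for comparison, as the same kind of injury at the same time, and the difference of both responses was tested gene by gene. The offset drops out of this difference. Of 19505 genes, 1808 (9.27%) differed: 796 (4.08%) were higher in the spinal response and 1012 (5.19%) lower. Leaving out any 1 of the 16 arrays gave 583 to 1076 and 782 to 1319. Against its own controls the cord alone had 6796 genes that differed (34.8%, with 15.5% higher and 19.4% lower). Of the 25 largest cerebral rises, 4 were further up in the cord and 4 were lower in the spinal response. Of the 25 falls 12 fell less or not at all in the cord. These genes were picked for the size of their cerebral difference, which the tissue difference subtracts. Picking them so tilts the counts towards a weaker response in the cord, and they do not measure how the tissues differ.

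Of the 4 cerebral rises that were lower in the spinal response, Glra1 differed by -3.93 (adjusted p = 6.1e-07). That is more than its cerebral rise, so Glra1 was not higher than control in the cord. Gfap rose by 3.37 in the cerebrum and stood at 0.74 in the cord, a difference of -2.63 (adjusted p = 3.95e-05). A2m differed by -1.71 and Lcp1, the actin-bundling plastin of leukocytes, by -1.23. Arg1 was the opposite, 2.46 in the cerebrum and 6.01 in the cord, a difference of 3.56 (adjusted p = 0.000484). Ms4a6d (2.11), Lilrb4a (1.81) and Tnc (1.33) also rose further in the cord. Among the largest spinal excesses were Saa3, an acute-phase protein (0.22 and 3.69), Chil3 of alternatively activated macrophages (-0.16 and 3.07), Timp1 (0.95 and 3.85) and Tagln (1.37 and 4.38), each with the cerebral value first. Chil3 and Timp1 did not pass in the cerebrum, while Tagln rose there too. Atp2a1 (-4.19), Myh4 (-3.90) and Myh8 (-3.63) were among the largest differences the other way, and these are genes of skeletal muscle. The 10 muscle genes had a median of 0.02 in the cerebrum, where none passed at an unadjusted p under 0.05, and of -1.64 in the cord.

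**Figure D4:**
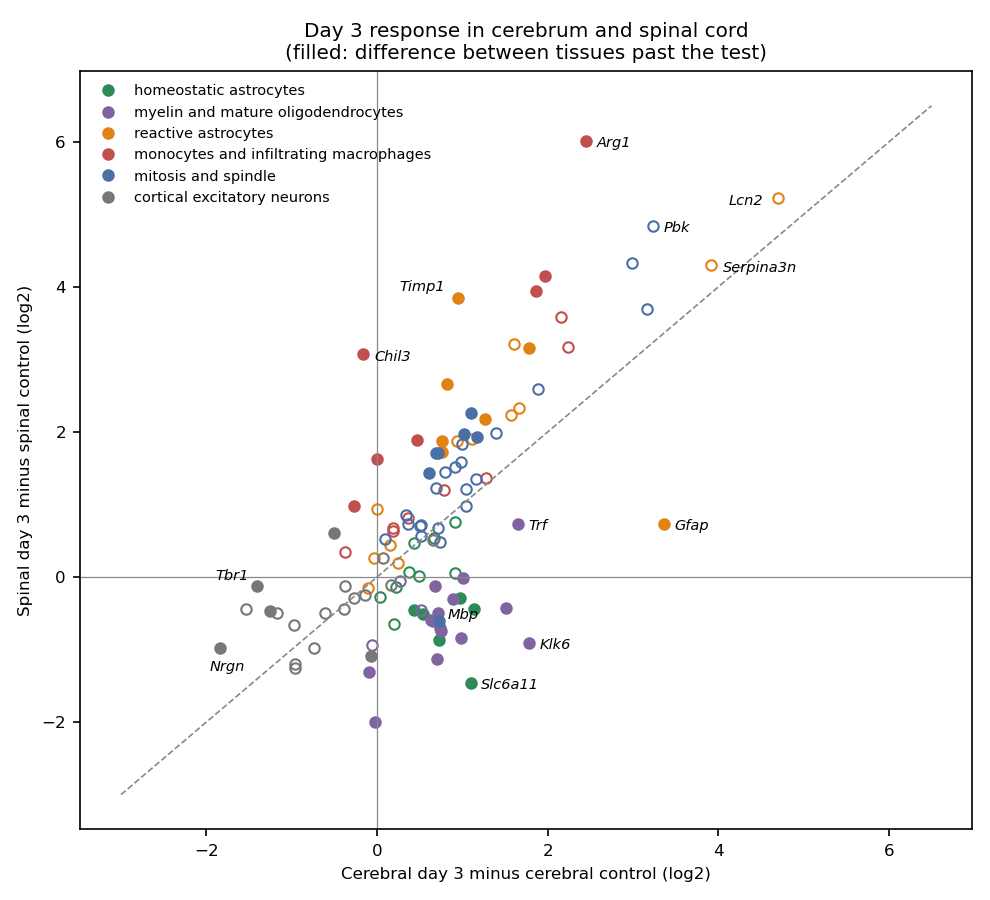
Log2 difference of day 3 from control in the cerebrum (x) and the spinal cord (y) for the members of 6 gene lists; each point is 1 gene, filled where the difference between tissues passed the test, and the dashed line marks equal responses. Filled points lie above the line for 7 of 15 monocyte genes and below it for 15 of 18 myelin and 6 of 15 resting astrocyte genes, while 6 of 19 reactive astrocyte genes are filled above it and 1 below.

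By list, 7 of 15 monocyte genes and 8 of 14 Fc and inhibitory receptors had a larger spinal response and 0 a smaller one, and medians of the cord were 1.63 and 2.45 against 0.46 and 1.11 in the cerebrum. Of the 18 myelin genes, 15 were lower in the spinal response, with medians of 0.71 in the cerebrum and -0.60 in the cord. Mbp differed by -1.20 (adjusted p = 2.81e-05), Mog by -1.43 and Bcas1 by -1.02. These differences use all 4 cerebral controls, whose myelin list means ran from -0.31 to 0.33. Of 15 resting astrocyte genes 6 were lower in the spinal response, Slc6a11 by -2.56 (1.10 and -1.46) and Kcnj10 by -1.26 (0.97 and -0.28), while 6 of 19 reactive genes were higher and 1, Gfap, was lower. Of 28 mitotic genes 6 were higher in the cord and 1 lower, with medians of 1.45 and 0.86. Of 19 cortical neuronal genes, 4 were higher and 1 lower, and for Tbr1 the difference was 1.28 (adjusted p = 0.000294) and for Nrgn 0.86 (adjusted p = 0.0107). Cerebral controls were above spinal controls by 4.60 in Tbr1 and 4.61 in Nrgn, and how far a forebrain gene could fall in the cord is not known, so these differences do not compare like falls. Of 15 interferon genes none differed in limma (1 at an unadjusted p under 0.05), with medians of 0.69 in the cord and 0.56 in the cerebrum.

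Fewer genes passed between day 3 and day 1 than between day 7 and day 3. Against day 1, 50 genes (0.256%) passed, 28 higher (0.144%) and 22 lower (0.113%) at day 3. With the wider allowance none passed in limma (163 higher and 157 lower at an unadjusted p under 0.05). When any single array was left out, 2 to 25 were higher and 3 to 17 lower, with the fewest without day 3 replicate 2. Lap3, an aminopeptidase, differed most (1.00, adjusted p = 0.00197), and it read 0.88, 1.02, 1.07 and 1.42 at day 3. Hspa5, the chaperone BiP of the endoplasmic reticulum, was higher by 0.84 (adjusted p = 0.0413). Tbr1 was lower by 0.70 (adjusted p = 0.0383), and Gsn, gelsolin, lower by 0.86. Of the lists, 45 had no member that passed between these days, and the cortical neuron list had 1, Tbr1.

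Against day 3, day 7 had 591 genes (3.03%) higher and 509 (2.61%) lower, 1100 in all (5.64%), and with the wider allowance 23 (0.118%) and 2 (0.0103%). Genes of phagocytes and of lipid handling were among those higher at day 7. Gpnmb read 1.90, 1.41, 1.99 and 1.94 at day 3 and stood at 6.59 at day 7, higher by 4.78 (adjusted p = 5.39e-06). Mmp12 was higher by 3.27 (adjusted p = 5.39e-06), the fatty acid receptor Cd36 by 2.73 (adjusted p = 9.48e-07), Plin2 by 2.06 (adjusted p = 1.85e-05), and the matrix protein Postn by 2.78. In the activation list 10 of 16 genes were higher at day 7 than at day 3 and 0 lower (4 and 0 with the wider allowance). The list mean was 1.03 to 1.12 in the day 3 arrays and 2.07 to 2.49 at day 7. In the lysosome list 8 of 17 were higher (2 with the wider allowance). Tgm1 differed the other way, by -2.33 (adjusted p = 0.00142, and 0.071 with the wider allowance), and Tnc by -1.36. The plastic tubulin Tubb2b read 1.33, 1.65, 1.67 and 1.60 at day 3 and was lower at day 7 (-1.15). Of 19 cortical neuron genes, 1 was higher at day 7 than at day 3, Nrgn by 0.84 (adjusted p = 0.00127), with a list median of -0.10. Of 14 general neuronal genes 1 was higher and 2 lower, and of 17 immediate early genes 3 were lower. None of these neuronal calls was kept with the wider allowance.

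**Figure D5:**
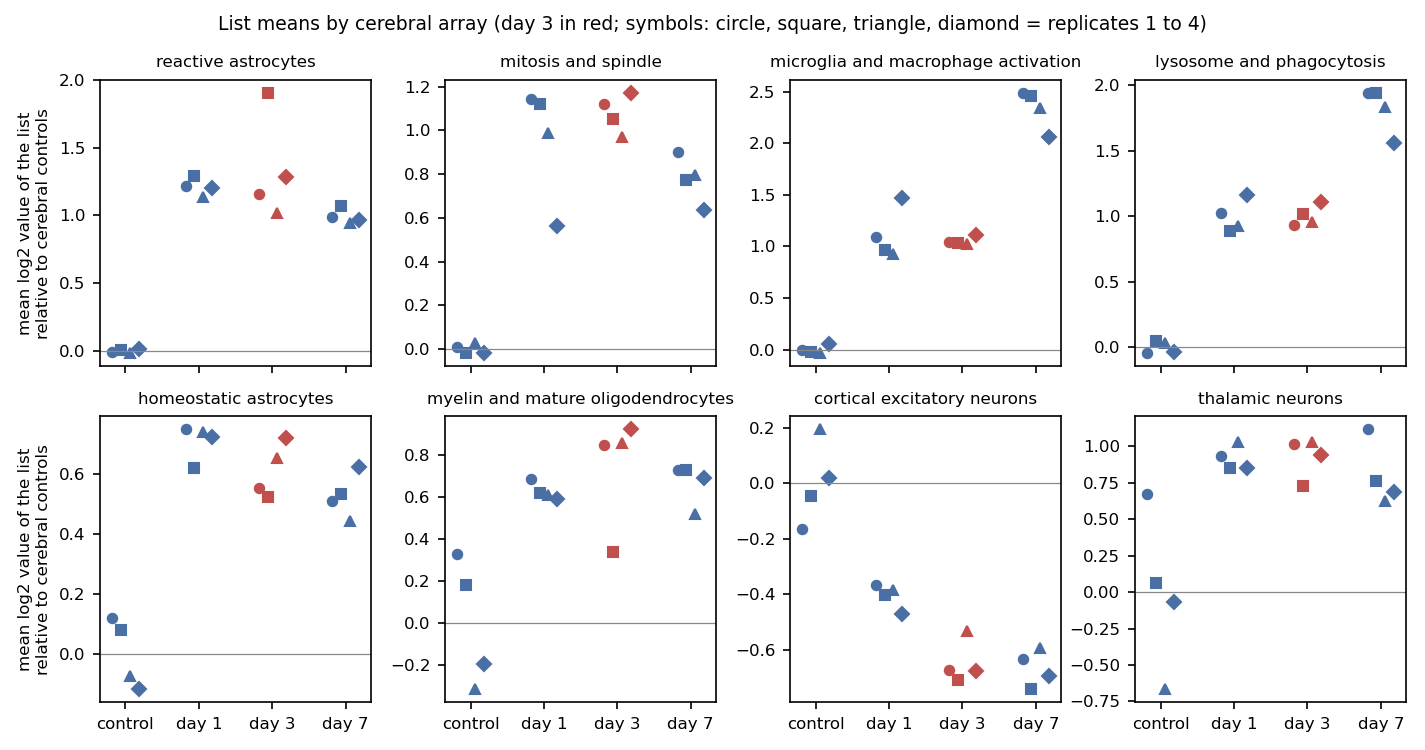
Mean log2 value of 8 gene lists in every cerebral array at control, day 1, day 3 and day 7, relative to the mean of the controls; each point is 1 array. Mitotic genes lie between 0.97 and 1.17 at day 3 and between 0.64 and 0.90 at day 7, while activation genes go from 1.03 to 1.12 at day 3 to 2.07 to 2.49 at day 7.

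Differences of day 1, day 3 and day 7 from control share the same 4 controls and are given side by side. Day 1 differed from control in 17.1% of genes (8.91% higher, 8.22% lower) and day 7 in 17.8% (9.42% higher, 8.43% lower). Gfap stood at 3.60, 3.37 and 3.26, Serpina3n at 3.66, 3.91 and 3.60, and Lcn2 at 4.46, 4.70 and 2.08. Arg1 stood at 1.11, 2.46 and 1.44, Cdk1 at 2.68, 3.16 and 2.53, and Tnc at 1.95, 2.66 and 1.30. Mmp12 stood at 5.60, 4.35 and 7.62 and Plin2 at 3.47, 3.75 and 5.81. Tbr1 stood at -0.70, -1.40 and -1.48. The reactive astrocyte list had medians of 0.64, 0.95 and 0.82, the mitosis list 0.76, 0.86 and 0.59, the lysosome list 0.73, 0.93 and 1.76, and the thalamic list 0.89, 0.87 and 0.82.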

How the data were processed

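Total RNA was measured on 4 arrays per group, a number that limits the precision. The deposited values are taken as log2 values, centred per probe by the authors. The sources used here give neither log base, summarisation, software nor build. Controls and day 1 share a median of 0 in 100% of 22206 probes, while day 3 and day 7 were centred apart. The day 3 offset of each probe is the value at which the controls minus the offset, together with the 8 day 3 arrays of both tissues, have a median of 0. It was a single value in 78.1% of probes and otherwise the middle of a range. Of 5648 probes on which this could be tested, 87.3% fitted, against 69.9% with day 1 arrays in place of controls. Of the probes, 19572 carry 1 symbol in the GRCm38.p6 annotation and give 19505 genes, as the mean of a gene's probes.

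All 32 arrays entered 1 limma fit (limma 3.58.1, R 4.3.3) with a mean for each of 8 groups and 24 residual degrees of freedom. Differences were tested against a bound, as in limma's treat, of the offset's uncertainty plus an allowance. The allowance was 0.0255 for day 3 and 0.0267 for day 7, the 95th percentile of the misfit, and the wider one was 0.196 and 0.262, the largest misfit. The difference between tissues was tested against 0. Adjusted p-values are Benjamini-Hochberg over all genes. Genes are named by rule: the 25 strongest rises and 25 strongest falls past the test with no overlap between groups, the 10 largest each way for other comparisons, and members of the 46 lists, with predicted genes passed over. The comparison, genes and lists were chosen with earlier results of these data known. Replicate numbers follow the order of deposition. The scripts were tested on simulated data. The other tools were numpy 2.4.6, matplotlib 3.10.9 and pandas 2.3.3 under Python 3.11.15. Alternatives were other bounds, normalisations, fits, array weights, probe rules and arrays left out.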

Additional observations from a re-analysis of the deposited data

Results flagged for a closer look

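Samples far from the other 3 of their group were sought with Dixon's ratio in 192 groups of values, of which chance flags about 1 in 20. Of 100 groups of gene values, 4 stood out. Day 3 replicate 2 was high in Tnc (3.01, others 2.54 to 2.55). Control replicate 2 was low in Selp (-0.27, others 0.06 to 0.11), and control replicate 3 was high in Krt20 (0.34, others -0.13 to -0.10) and in Cd34 (0.46, others -0.18 to -0.09). Of 92 groups of list means, 6 stood out. Day 3 replicate 2 was high in cyclins and cell cycle inhibitors (0.58, others 0.13 to 0.14) and in pericytes and smooth muscle (0.39, others 0.24 to 0.26), and low in myelin (0.34, others 0.85 to 0.92) and in oligodendrocyte precursors (0.17, others 0.42 to 0.43). Control replicate 1 was low in immediate early genes (-0.52, others 0.12 to 0.20), and control replicate 4 was high in transglutaminases and Bcl2a1 copies (0.14, others -0.07 to -0.03).

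The response at day 3 differed between spinal cord and cerebrum in 1808 genes (9.27%) by the interaction test in limma, and in 20 of the 50 named genes. The 50 were picked for large cerebral differences, which this test subtracts, so their count is tilted by that choice. Spinal minus cerebral, the log2 difference was -3.93 for Glra1 (adjusted p = 6.1e-07), -2.63 for Gfap (3.95e-05), -1.71 for A2m (0.0402) and -1.23 for Lcp1 (0.00863). It was 3.56 for Arg1 (0.000484), 2.54 for Prl (0.0235), 2.11 for Ms4a6d (0.00257), 1.94 for Cd34 (0.000145), 1.81 for Lilrb4a (0.00346) and 1.33 for Tnc (0.0327). Among neuronal and hormone genes it was 1.42 for Pomc (0.00688), 1.28 for Tbr1 (0.000294), 1.01 for Kcnh4 (0.00687), 0.86 for Nrgn (0.0107) and 0.79 for Chrm1 (0.0323). It was 1.53 for Olfr731 (0.0128), 1.29 for Olfr1170 (0.0026), 1.18 for Olfr141 (0.00779), 1.05 for Olfr1110 (0.0359) and 0.92 for Krt20 (0.00175). Cd34 fell in the cerebrum (-1.30) and stood at 0.64 in the cord.

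Of the 2634 probes with no gene symbol, which the comparisons of genes do not use, 122 were higher and 348 lower at day 3 in a fit of their own. With the wider allowance 48 were higher and 165 lower.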

How the results depend on the processing

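No paired analysis was possible because the labels carry no replicate numbers. Counts are given as higher and lower. For day 3 against control they were 557 and 406 with the largest misfit as allowance, 2250 and 2451 after quantile normalisation, 826 and 814 with controls 1 and 2 alone, and 436 and 287 without day 3 replicate 2 and with the wider allowance. They were 1117 to 1318 and 1211 to 1382 when single arrays were left out. The spinal minus cerebral difference gave 407 and 548 in a fit of its 4 groups alone and 384 and 489 with cerebral controls 1 and 2 alone. Day 3 against day 1 gave 0 and 0 on the values as deposited (limma, no offset) and with the wider allowance, 45 and 41 with the offset taken as exact, 9 and 5 with the allowance doubled, 506 and 503 after quantile normalisation, 39 and 45 in a fit of its groups alone, and 189 and 204 with array weights. Leaving out single arrays gave 2 to 25 and 3 to 17. Day 7 against day 3 gave 63 and 44 as deposited, 1078 and 969 with exact offsets, 327 and 272 with the doubled and 23 and 2 with the wider allowance, 1138 and 1197 after quantile normalisation, 1011 and 774 in its groups alone, and 1211 and 1052 with array weights. Leaving out single arrays gave 356 to 481 and 298 to 383. The cause of these moves was not tested, except that a wider bound passes fewer genes by construction. No named gene reversed its direction, but which direction held more genes did: day 3 against control gave 1547 and 1455 as deposited and 1618 and 1339 with each array shifted to a median of 0 (1464 and 1583 in the report), and that shift turned the spinal minus cerebral counts from 796 and 1012 to 971 and 861. Of the 50 named genes, 48 passed with the wider allowance and 45 with controls 1 and 2 alone. A filter on low values was not run, since centred values carry no level.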

Other observations

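Chaperones and folding enzymes of the endoplasmic reticulum were looked at after Hspa5 had been seen among the few genes that differed between day 1 and day 3, so the list has no independent weight. Of 18 measured, 9 were higher at day 3 than in the controls (5 with the wider allowance), with a median of 0.48. The medians at day 1 and day 7, against the same controls, were 0.21 and 0.18, with 3 higher at each. Hspa5 read 0.66, 1.78, 0.83 and 1.06 in the day 3 arrays and was higher than control by 1.08 ± 0.19, or by 0.85 without replicate 2. The chaperone Hsp90b1 (0.88), the stress transcription factor Xbp1 (0.86), and Edem1 (0.87), Sdf2l1 (0.84), Creld2 (0.79) and Hyou1 (0.62) were also higher. Sdf2l1 and Creld2 did not pass with the wider allowance. Not every member was highest at day 3: Edem1 stood at 0.82 at day 1 and 1.10 at day 7. Hsp90b1 stood at 0.40 and 0.74 on those days. Between day 3 and day 1, 1 of the 18 passed, and between day 7 and day 3, 4 were lower, which no longer held with the wider allowance. In the cord 11 of the 18 were higher at day 3.

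Liver genes in day 3 replicate 2 covered Alb (5.99), Fabp1 (4.75), Mup3 (3.65), Fgg (2.54), Serpina1c (2.39) and Ahsg (1.95), while Apoa1, Tat and Cps1 each read 0.21 there. Opalin (-1.19) and Aspa (-0.34), both of oligodendrocytes, and the clock gene Dbp (-2.35) were low in the same array.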
